A study of Homo sapiens with 6 samples.

Results

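The Mediator complex was followed here through the transcripts of its subunits in K562 cells, an established line grown from a chronic myelogenous leukaemia. The list held 33 genes, 7 of the kinase module and 26 of the core complex, and a probe set was a member when the platform annotation gave it 1 symbol and that symbol was on the list. This gave 91 of the 54613 probe sets other than controls, for 31 of the 33 genes. MED6 and MED25 had no such probe set and were not analysed here. All 31 symbols matched RefSeq by gene ID. The experiment compared 3 wells that received DMSO, the vehicle, with 3 wells that received 25 nM of CA (cortistatin A, per the series title), all for 3 h. Wells held 500000 to 800000 cells per mL, no group carried a genetic change made for the study, and the only difference between groups in the labels is the compound. Each well gave 1 array (Affymetrix Human U133 Plus 2.0), and the values are log2 signals made with RMA, which sets all arrays to a common intensity distribution. A change shared by most transcripts is therefore not visible in them. The p-values here rest on how much the arrays of a group differed, and in the fitted tests also on the spread over all tested probe sets. The labels do not say whether the 3 wells of a group were separate cultures.

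Mediator is a large coactivator that carries signals from DNA-bound transcription factors to RNA polymerase II. Its head and middle modules contact the polymerase, the tail receives most activators, and MED14 runs through the complex as a scaffold. The kinase module docks reversibly and holds CDK8 or its paralogue CDK19 with cyclin C (CCNC), MED12 or MED12L, and MED13 or MED13L. Its kinases phosphorylate transcription factors and parts of the transcription machinery, and cortistatin A binds the kinase pocket of CDK8 and CDK19. The drug thus acts on the protein, while the arrays read the messenger RNA of each subunit. Module assignments differ between descriptions of the complex, and MED27, MED28, MED29 and MED30 are placed in the tail here.

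All 6 arrays were alike, with correlations of 0.997 across probe sets for every pair. Of 10 markers fixed for erythroid K562 cells, 9 had a single-symbol probe set and all 9 were above the test threshold of 3.49, from ALAS2 at 6.10 to the embryonic globin HBE1 at 13.27. Of 8 markers of other blood cells, 4 of the 7 with a probe set were above it, and the T cell gene CD3D reached 9.07. Of 4 markers of other tissues, the epithelial adhesion gene EPCAM was at 10.46 and COL1A1 at 6.95, while ALB and INS were below. The 3' minus 5' signals of 4 controls were compared, the cell transcripts actin and GAPDH and the added RNAs dap and thr. The added lys and phe were not compared in this way. For 3 of the 4 (actin, dap and thr) the signal difference was lower on every CA array than on any DMSO array. That of actin was 1.40 to 1.49 on the DMSO arrays and 1.14 to 1.31 on the CA arrays, and that of the added control thr was 3.02 to 3.12 against 2.77 to 2.89. For dap it was 2.34 to 2.61 against 2.14 to 2.30. That of GAPDH overlapped between groups, at 0.619 to 0.645 in DMSO and 0.583 to 0.629 in CA. The part of this in the results below was not tested beyond the values given with it.

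Transcripts of nearly all subunits were read well above the threshold in cells given DMSO. Testing was limited to probe sets whose 6-array mean reached 3.49, the median of such means, which kept 72 of the 91 probe sets and 29 of the 31 genes. A gene is represented below by its brightest tested probe set. In DMSO, 28 of the 29 lay at or above the 75th percentile of all probe sets and 12 at or above the 90th. Those percentiles include dim probe sets, while each gene is shown by its brightest tested one. High percentiles follow in part from that choice, and the share of all measured genes at these percentiles was not computed. The median over the 29 genes was 7.96 on the log2 scale, against 6.47 over all 12810 measured genes, chosen in the same way. Probe sets differ in how well they hybridise, so the order of signals below is an order of probe sets and not of transcript numbers. Within 1 gene the probe sets already spanned up to 8.40 log2 units (CCNC, 2.45 to 10.85), and those of MED28 ran from 2.95 to 10.35.

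In the kinase module the signals ran from cyclin C at the top to MED12L below the threshold. CCNC, the cyclin partner of both kinases, had a DMSO mean of 10.85 ± 0.01 (SD, n = 3), at the 98.3rd percentile. MED13, the large subunit that tethers the module to the core, stood at 9.39 ± 0.04 and its paralogue MED13L at 7.61 ± 0.13. CDK8, the kinase, read 8.48 ± 0.02 and CDK19 read 5.89 ± 0.04. MED12, which activates the kinase through cyclin C, had 5.99 ± 0.12. MED12L was the only member of the module that was not tested, with DMSO means of 2.86 and 2.54 on its 2 probe sets, at the 38.6th and 31.0th percentiles.

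The head module, which binds the polymerase, had a median of 7.26 in DMSO over 6 measured genes. MED20 had the brightest head probe set at 8.76 ± 0.04, followed by MED8 at 8.25 ± 0.01 and MED17, the architectural subunit of the head, at 8.14 ± 0.06. MED22, MED11 and MED18 formed a lower set at 6.38 ± 0.07, 6.30 ± 0.02 and 5.78 ± 0.16. The 3 upper probe sets did not overlap with the 3 lower ones on any array. The middle module had a median of 7.96 over 9 genes, from MED1, the docking subunit for nuclear receptors, at 9.03 ± 0.05 to MED9 at 5.68 ± 0.15. MED10 (8.64), MED26 (8.62), MED4 (7.98), MED21 (7.96), MED31 (7.92), MED19 (7.72) and MED7 (6.76) lay between them. MED14, the scaffold, read 7.57 ± 0.04.

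The tail, which holds the main docking sites of activators, had a median of 8.03 over 7 genes. MED28 stood at 10.33 ± 0.01 and MED27 at 8.94 ± 0.01. MED23, a target of signalling through ELK1, was at 8.55 ± 0.06 and MED30 at 8.03 ± 0.08. MED16 (7.27), MED15 (7.06) and MED29 (6.29) were lower. MED24 was read on 1 single-symbol probe set at 3.39 ± 0.08, just below the threshold, and was not tested; a further probe set of the platform carries its symbol with a second gene and was left out by the rule.

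**Figure D1:**
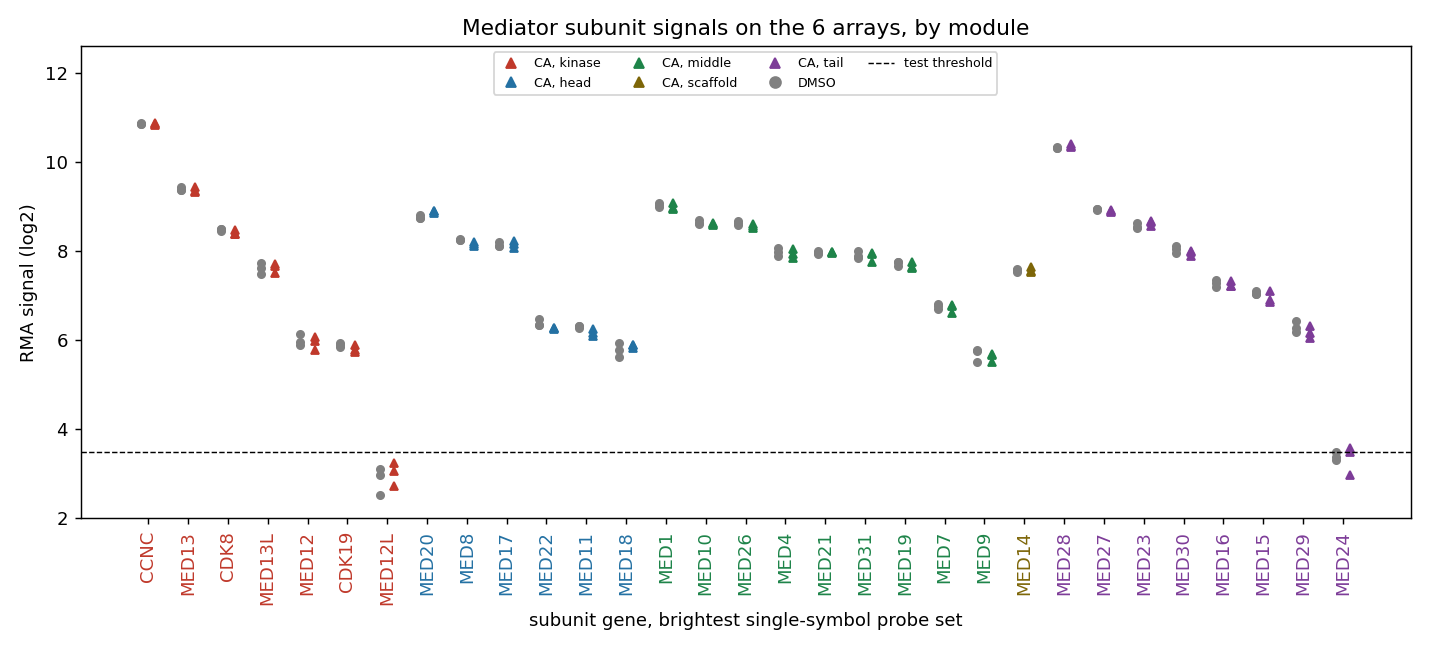
RMA log2 signal of the brightest single-symbol probe set of each of the 31 subunits, ordered by module and by DMSO mean, with 1 point per array (grey circles DMSO, coloured triangles CA). MED12L and MED24 have means below the dashed test threshold of 3.49, and for most genes the CA and DMSO points overlap.

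In all 3 paralogue pairs of the kinase module the difference between paralogues overlapped between DMSO and CA arrays. Only the change of a difference between 2 probe sets can be compared between groups, since the difference itself depends on the probes. For CDK19 minus CDK8 the log2 difference was -2.60, -2.57 and -2.60 on the DMSO arrays and -2.58, -2.59 and -2.67 on the CA arrays. The 2 groups overlapped, and the mean difference changed by -0.02 (exact 2-sided permutation p = 0.6, Benjamini-Hochberg adjusted over the 3 pairs 0.7). For MED13L minus MED13 it was -1.76, -1.71 and -1.88 in DMSO and -1.76, -1.61 and -1.84 in CA. These also overlapped, with a change of 0.05 (exact permutation p = 0.7, adjusted 0.7). For MED12L minus MED12, where MED12L is below the threshold, the difference was -3.43, -2.79 and -3.16 in DMSO and -3.26, -2.73 and -2.84 in CA. The groups overlapped again, and the change of 0.19 was smaller than the SD of 0.32 between the DMSO arrays (exact permutation p = 0.6, adjusted 0.7). With 3 against 3 arrays no p below 0.1 is possible, so these tests could not have reached 0.05.

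The start regions of the pairs that RefSeq's promoter table held are shown to set the letters of each paralogue beside its signal. The table (GRCh38.p14) gives 300 bases per start, 250 before and 50 after it, and held 30 windows for 25 of the 33 members, with 8 members not in it (MED6, MED8, MED13, MED14, MED21, MED22, MED28 and MED30). Below are the 250 bases upstream of the outermost start, 5′ to 3′, with matches to searched motifs in capitals. The motifs were searched on both strands. They were CCGGAAG for ETS factors, AAGATGGCG for YY1 and GGGCGG for SP1. For NFY the letters were CCAAT, for the TATA box TATAAA, for the E-box CACGTG and for STAT factors TTCNNNGAA.
CDK8, chr13:26253879-26254128, strand plus: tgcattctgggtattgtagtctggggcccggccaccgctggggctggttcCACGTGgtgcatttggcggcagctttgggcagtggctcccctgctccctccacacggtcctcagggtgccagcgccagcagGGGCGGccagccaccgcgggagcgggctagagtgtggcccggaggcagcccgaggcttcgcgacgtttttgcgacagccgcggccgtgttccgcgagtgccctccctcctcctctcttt
CDK19, chr6:110815856-110816105, strand minus: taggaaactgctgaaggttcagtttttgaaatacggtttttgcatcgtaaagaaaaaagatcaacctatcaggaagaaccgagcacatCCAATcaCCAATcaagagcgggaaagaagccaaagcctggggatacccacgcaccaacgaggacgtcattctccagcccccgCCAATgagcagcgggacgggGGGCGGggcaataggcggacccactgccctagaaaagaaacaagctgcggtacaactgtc
MED12, chrX:71118346-71118595, strand plus: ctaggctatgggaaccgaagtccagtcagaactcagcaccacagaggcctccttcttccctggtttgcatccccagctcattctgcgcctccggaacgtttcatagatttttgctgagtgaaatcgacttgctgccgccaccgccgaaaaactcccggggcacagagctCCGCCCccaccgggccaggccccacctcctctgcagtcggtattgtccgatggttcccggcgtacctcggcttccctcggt
MED12L, chr3:151085414-151085663, strand plus: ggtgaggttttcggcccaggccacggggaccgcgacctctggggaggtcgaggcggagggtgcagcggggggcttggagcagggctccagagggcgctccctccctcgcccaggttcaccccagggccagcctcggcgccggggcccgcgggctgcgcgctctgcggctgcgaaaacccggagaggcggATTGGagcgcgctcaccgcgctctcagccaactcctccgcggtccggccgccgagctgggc

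The CDK8 window was richer in G and C than that of CDK19, at 68.8% against 52.0%, with 21 against 13 CpG. CDK8 held an E-box 195 to 200 bases and an SP1 match 114 to 119 bases before its start. CDK19 held 3 CCAAT matches, at 158 to 162, 151 to 155 and 76 to 80 bases, and an SP1 match at 55 to 60 bases. MED12 held 1 SP1 match at 76 to 81 bases on the other strand, and MED12L, with 75.6% G and C and 29 CpG, 1 CCAAT match on the other strand at 57 to 61 bases. Over whole windows, SP1 letters stood in 18 of 30 member windows (60.0%) against 45.0% of all 35116 windows. ETS letters stood in 8 (26.7% against 10.3%), those of MED7, MED11, MED15, MED17, MED18, MED29 and MED31. YY1 letters stood in 4 (13.3% against 1.75%), those of MED1, MED16, MED18 and MED25. CCAAT was in 11 (36.7% against 34.6%), TATAAA in 2 (6.67% against 11.5%), the E-box in 2 (6.67% against 7.26%) and the STAT letters in 2 (6.67% against 7.66%). Windows of 1 gene can overlap, which was the case for some of the 4 members with several starts. The median CpG count was 21 in member windows and 14 in all windows, at nearly the same G and C share (58.5% and 58.7%). These are matches of letters, and no binding was measured.

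No Mediator probe set passed the test between CA and DMSO. CA was compared with DMSO by limma across all 27307 tested probe sets, with positive changes higher in CA. Of the 72 Mediator probe sets 0 had a Benjamini-Hochberg adjusted p under 0.05, where 0.0952% of all tested probe sets did, and their adjusted p lay between 0.319 and 0.998. At an unadjusted p under 0.05 there were 11 of 72 (15.3%), where the share over all tested probe sets was 9.31%. Of these 11, 9 had a fitted change above 0 and 2 below, where over all probe sets the shares were 4.55% above and 4.76% below. The count of 11 was 7 without DMSO array 2, 5 without DMSO array 3 and 5 without CA array 2, where 7.79%, 8.53% and 7.67% of all tested probe sets were at that level. The median change of the 72 was -0.01, as over all tested probe sets (-0.01). CA and DMSO arrays did not overlap for 17 of the 72 (23.6%), where 15.6% of all tested probe sets had no overlap. Probe sets of 1 gene share their transcript, so the 72 are not independent.

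By gene, 21 of the 29 fitted changes were below 0 (72.4%, against 56.5% of all measured genes), with a median of -0.04 against -0.01. The values ran from -0.13 to 0.12. Those of MED20 and MED11, 2 genes, were at an unadjusted p under 0.05 (8.61% of all measured genes did). Both the count and its members changed with the arrays used. It was 1 without DMSO array 1 (MED20) and 1 without DMSO array 2 (MED18), and 0 without DMSO array 3 or CA array 2. Without CA array 1 it was 2, but these were CDK19 and MED15, and without CA array 3 it was MED11 and MED20 again. Of all tested probe sets 7.67% to 11.3% were at that level with an array left out. Leaving out 1 array moved the fitted change by over 1.5 times for 23 of the 29 genes. The 95% confidence interval lay within a 1.2-fold change either way for 24 of the 29 genes and within 1.5-fold for all 29. Over all 12810 measured genes this held for 8501 and 12642. CA and DMSO arrays of 4 of the 29 genes (13.8%) did not overlap, a share below the 16.1% of all measured genes. These were MED20, MED11, MED22 and MED8, all of the head. Each was read here on a probe set whose suffix marks probes that match more than 1 transcript. Relative to the added control RNAs the picture shifts as a whole. Scaling to their 3' probe sets adds 0.20 to every change and moves the median over all probe sets to 0.19. On that scale 15 of the 72 Mediator probe sets (20.8%) were called, all higher. Of all tested probe sets 13.5% were called, and nearly all of these were higher too, 3675 against 16 lower. Their 5' probe sets add 0.04 and gave 0 Mediator calls by limma, with 5 (6.94%) at an unadjusted p under 0.05, where 5.50% of all tested probe sets were. Directions below are on the RMA scale, and each below 0 smaller in size than 0.20 is above 0 on the 3' control scale.

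**Figure D2:**
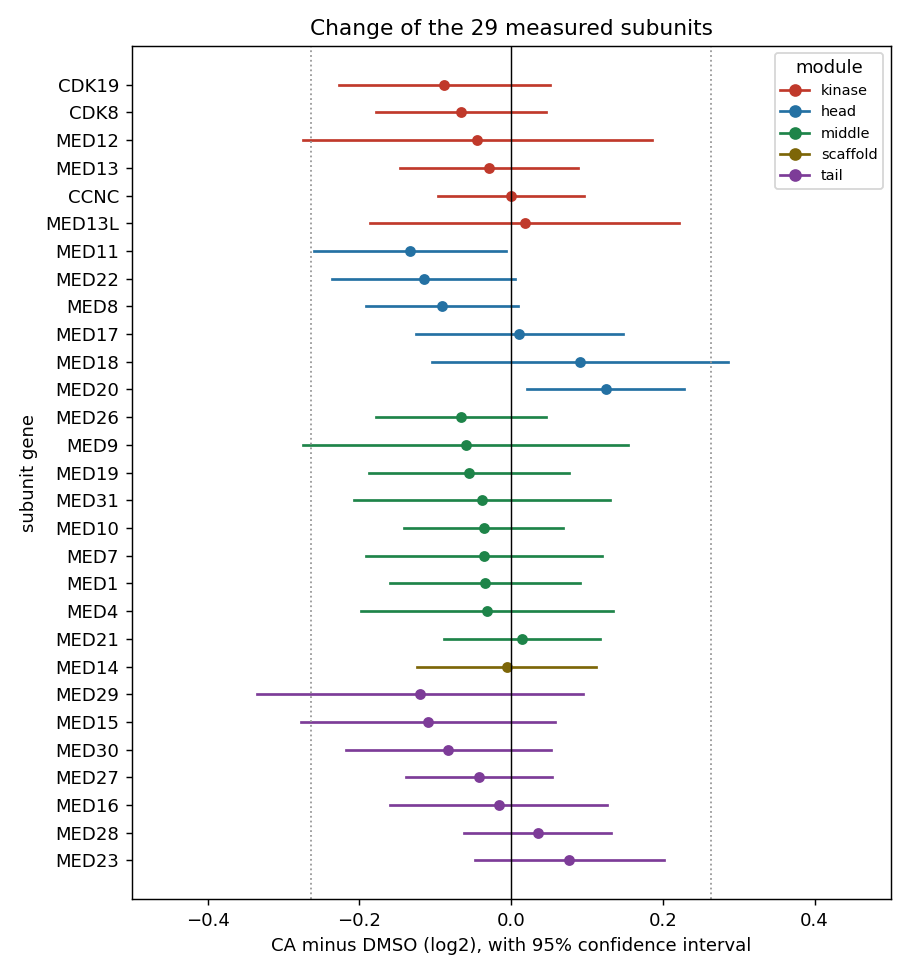
Fitted CA minus DMSO change on the RMA scale (log2, points) with its 95% confidence interval (lines) for the 29 measured subunits, by module; dotted lines mark 1.2-fold. Points lie between -0.13 and 0.12, and only the intervals of MED11 and MED20 leave out 0.

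The kinases that CA targets showed transcript levels within a narrow range of the vehicle on their brightest probe sets. CDK8 read 8.49, 8.50 and 8.45 in DMSO and 8.48, 8.37 and 8.39 in CA. CA arrays 2 and 3 were below every DMSO array and CA array 1 lay among them. The change was -0.07 (95% confidence interval -0.18 to 0.05, limma adjusted p = 0.734). CDK19 read 5.89, 5.93 and 5.85 in DMSO and 5.90, 5.78 and 5.72 in CA, again with CA array 1 among the DMSO arrays. Its change was -0.09 (-0.23 to 0.05, limma adjusted p = 0.707). With an array left out it ran from -0.14, without CA array 1, to -0.05, without CA array 3, and the first had a limma unadjusted p of 0.0389 (adjusted p = 0.414). CCNC was the steadiest of the module, at 10.85, 10.86 and 10.84 in DMSO and 10.83, 10.88 and 10.84 in CA. MED13 had -0.03 (-0.15 to 0.09), MED13L 0.02 (-0.19 to 0.22) and MED12 -0.04 (-0.27 to 0.19). With all 6 arrays 0 of the 6 measured genes had an unadjusted p under 0.05, and none had groups that did not overlap. The untested MED12L had 2.52, 3.10 and 2.97 in DMSO and 2.73, 3.05 and 3.24 in CA on its brighter probe set, with overlapping groups near the level of dim probe sets.

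The head module held the widest spread of changes among the brightest probe sets. MED20, which forms the movable jaw of the head with MED18, read 8.80, 8.73 and 8.74 in DMSO and 8.90, 8.89 and 8.86 in CA. All CA arrays were above all DMSO arrays, by a change of 0.12 (0.02 to 0.23) or 1.09-fold, which did not pass over all probe sets (limma adjusted p = 0.443). MED11 read 6.31, 6.31 and 6.27 in DMSO and 6.09, 6.16 and 6.25 in CA. All CA arrays were below all DMSO arrays, with a change of -0.13 (-0.26 to -0.01, limma adjusted p = 0.515). MED22, which pairs with MED11, read 6.35, 6.33 and 6.46 in DMSO and 6.28, 6.27 and 6.25 in CA, also without overlap, with a change of -0.11 (-0.24 to 0.01, limma adjusted p = 0.555). MED8, a long helical subunit of the head, read 8.24, 8.24 and 8.26 in DMSO and 8.19, 8.16 and 8.12 in CA, lower on each CA array. Its 3 probe sets had -0.09, -0.09 and -0.13, and on each of them the CA arrays lay below the DMSO arrays (limma adjusted p = 0.553 to 0.615). MED17 had 0.01 (-0.13 to 0.15), and MED18 0.09 (-0.10 to 0.29) with overlapping groups. The head thus had 3 fitted changes above 0 and 3 below, of which 0 passed the test.

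In the middle module 8 of 9 genes had a fitted change below 0, all small, and 0 had an unadjusted p under 0.05. The lowest was MED26, the subunit that recruits elongation factors, at -0.07 (-0.18 to 0.05). MED9 (-0.06), MED19 (-0.06), MED31 (-0.04), MED10 (-0.04), MED7 (-0.04), MED1 (-0.03) and MED4 (-0.03) followed, and MED21 had 0.01. MED1 read 8.98, 9.08 and 9.04 in DMSO and 8.97, 9.07 and 8.95 in CA, with groups that overlapped, as they did for all 9 genes. MED14 had -0.01 (-0.12 to 0.11). In the tail 5 of 7 were below 0 and 0 had an unadjusted p under 0.05. The lowest were MED29 at -0.12 (-0.33 to 0.09), MED15, an activator-binding subunit, at -0.11 (-0.28 to 0.06), and MED30 at -0.08 (-0.22 to 0.05). With an array left out, MED15 ran from -0.18 to -0.07 and MED29 from -0.19 to -0.06, in both cases from CA array 1 left out to CA array 2 left out. Without CA array 1, MED15 had a limma unadjusted p of 0.00915 (adjusted p = 0.333). MED27 had -0.04 and MED16 -0.02, while MED28 had 0.04 (-0.06 to 0.13) and MED23 0.08 (-0.05 to 0.20). Groups overlapped for all 7 of these tail genes. With MED27 to MED30 counted in the head, the median change of the head was -0.06 in place of -0.04 and that of the tail -0.02 in place of -0.04.

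Probe sets of the same gene did not always move together. Of the 29 genes, 22 had more than 1 tested probe set, and in 12 of these the fitted changes had both signs. The 43 tested probe sets other than the brightest had 25 changes above 0 and 18 below, and 9 were at an unadjusted p under 0.05 (20.9%), of which 8 were above 0. Over all 10185 such probe sets in the data the share was 10.3%, with 605 above 0 and 446 below. These 9 belonged to 7 genes, CDK8, CDK19, MED13L, MED7, MED21, MED23 and MED28, and 0 of them was called by limma (adjusted p between 0.319 and 0.530). Of the 9, 4 carry the suffix for probes that match more than 1 transcript, of the same or of other genes (probe set 3 of CDK8, 2 of MED21, and 2 and 3 of MED23). The probe sets described next were chosen after their values were seen, so their differences are given without a test. Probe sets of a gene are numbered by their mean signal, 1 being the brightest.

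CDK8 and CDK19 each had a probe set that went the other way from the brightest. Probe set 3 of CDK8 read 6.40, 6.40 and 6.36 in DMSO and 6.69, 6.49 and 6.57 in CA, all CA arrays above. Its change was 0.19 (0.05 to 0.34, limma adjusted p = 0.390), whereas probe sets 1 and 2 had -0.07 and -0.08. Taken within each array, probe set 3 minus probe set 1 was -2.09, -2.10 and -2.09 in DMSO and -1.79, -1.89 and -1.82 in CA, so the difference changed by 0.26 with no overlap. For CDK19, probe set 3 read 4.76, 5.14 and 4.96 in DMSO and 5.25, 5.18 and 5.13 in CA, and the groups overlapped between DMSO array 2 and CA array 3. Probe set 2 read 5.35, 5.45 and 5.40 in DMSO and 5.22, 5.08 and 5.31 in CA, all CA arrays below. The changes were 0.24 (0.00 to 0.47, limma adjusted p = 0.530) and -0.20 (-0.37 to -0.04, limma adjusted p = 0.433). That of probe set 3 was 0.14 without DMSO array 1 and 0.33 without DMSO array 2. Probe set 3 minus probe set 2 went from -0.60, -0.32 and -0.44 in DMSO to 0.03, 0.11 and -0.17 in CA.

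MED23 had the probe set with the smallest p of the complex. Its probe set 3 read 6.54, 6.39 and 6.42 in DMSO and 6.80, 6.78 and 6.62 in CA, with no overlap. The change was 0.28 (0.12 to 0.45) or 1.22-fold (limma unadjusted p = 0.00531, adjusted p = 0.319). Probe set 2 had 0.21 (0.02 to 0.41; 0.13 to 0.29 with an array left out), also with all CA arrays above, the brightest 0.08, and probe set 4 had -0.05. The largest change was that of probe set 3 of MED7, a middle subunit, at 0.32 (0.12 to 0.52) or 1.25-fold (limma adjusted p = 0.340). It is dim, at 4.13, 4.04 and 4.32 in DMSO and 4.39, 4.50 and 4.56 in CA, while the other MED7 probe sets, both near 6.75, had -0.04 and -0.09. For MED28, probe set 5 had 0.16 (0.04 to 0.29), with all CA arrays above, and the other 6 tested probe sets had changes between -0.05 and 0.05. MED13L had 0.13 on probe set 2, and its 4 tested probe sets were all above 0, from 0.02 to 0.13. MED21 had 0.11 on probe set 2 against 0.01 on its brightest. The second probe set of MED20 had 0.02, below the 0.12 of the brightest.

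A fit that takes the mean 3' minus 5' signal of 3 controls (actin, dap and thr, without GAPDH) as a covariate moved 6 of the 9 by over 1.5 times. It gave 0.11 for CDK8 probe set 3, 0.10 for MED23 probe set 2, 0.02 for MED23 probe set 3, 0.04 for MED13L probe set 2, -0.02 for CDK19 probe set 2 and 0.26 for MED28 probe set 5. The others had 0.29 (MED7 probe set 3), 0.34 (CDK19 probe set 3) and 0.09 (MED21 probe set 2). That covariate was 2.29 to 2.40 on the DMSO arrays and 2.02 to 2.17 on the CA arrays, without overlap, so it cannot be told apart from the treatment. Its 3 controls are those whose groups did not overlap, and the fit was added with the data in view. It widened the standard error of each of the 9, for CDK8 probe set 3 from 0.06 to 0.16. In this fit 4 of the 72 (5.56%) had an unadjusted p under 0.05, where 6.02% of all tested probe sets did. With the mean over all tested probe sets of a gene in place of the brightest, CDK8 had 0.01, MED12 0.07, MED7 0.06, MED31 0.03 and MED16 0.02, each of the other sign than on the brightest probe set.

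**Figure D3:**
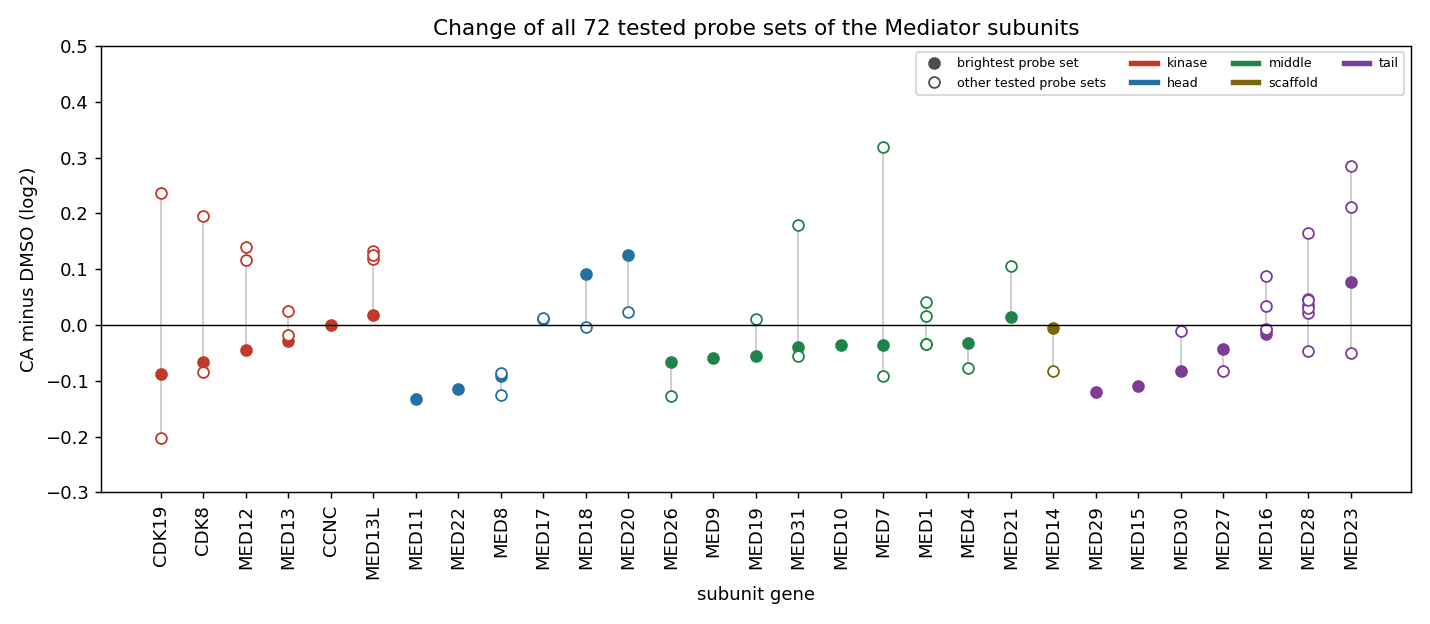
CA minus DMSO change (log2, RMA scale) of all 72 tested probe sets, 1 column per gene, grouped by module; filled points are the brightest probe set of a gene and open points its other tested ones. Open points reach 0.32 for MED7 and 0.28 for MED23, above the filled points of the same genes.

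**Figure D4:**
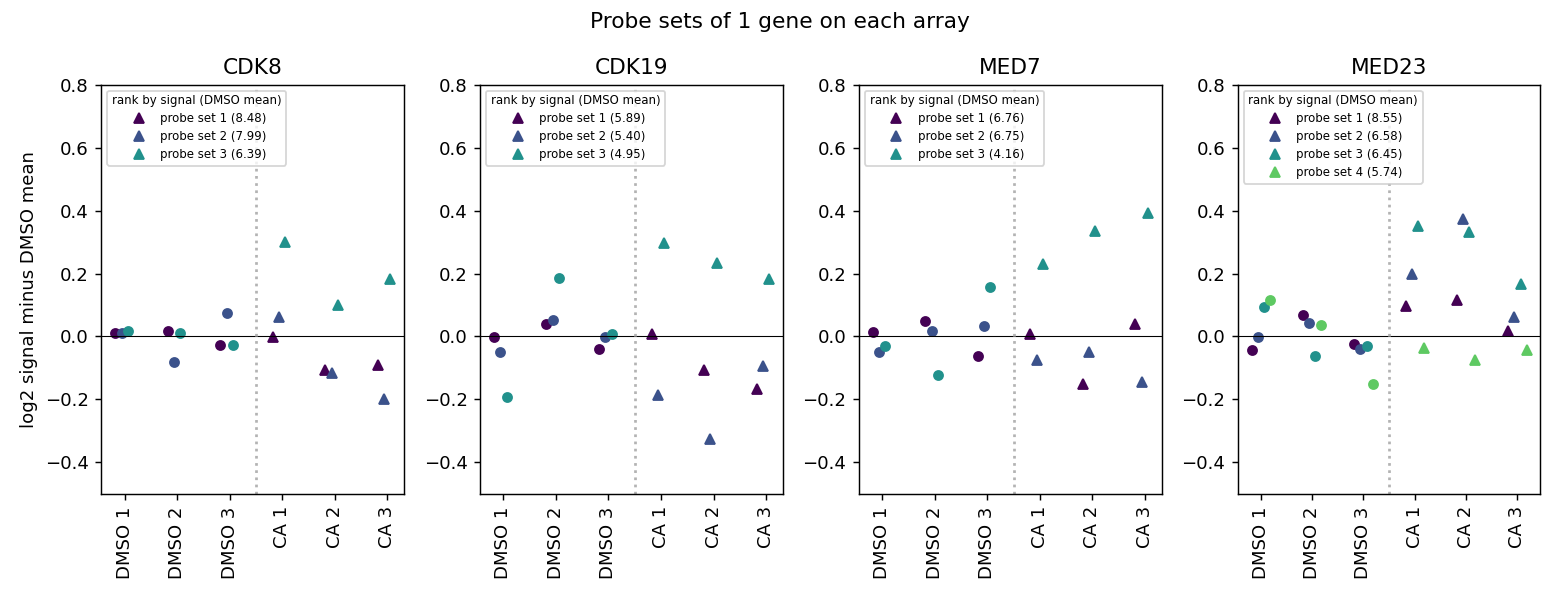
Signal of each tested probe set of CDK8, CDK19, MED7 and MED23 on each array, as log2 difference from its own DMSO mean (circles DMSO, triangles CA; colours are probe sets numbered by signal, with their DMSO mean in the key). On the CA arrays probe set 3 of each of CDK8, CDK19, MED7 and MED23 lies above 0, while other probe sets of CDK8, CDK19 and MED7 lie mostly below.

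The machinery that Mediator works with showed a like picture. Of 12 measured subunits of RNA polymerase II, the enzyme Mediator contacts, 0 were called by limma and 0 had an unadjusted p under 0.05, with a median change of -0.01. POLR2I had the smallest p, with -0.08 (-0.19 to 0.03, limma adjusted p = 0.664), and POLR2B, the brightest at 11.33 in DMSO, had -0.03. Of 31 measured general transcription factors, which with TFIID assemble at promoters, 0 were called and 3 (9.68%) had an unadjusted p under 0.05, 1 above and 2 below 0, near the 8.61% of all measured genes, with a median of -0.02. GTF2E1, the large subunit of TFIIE, read 7.769, 7.804 and 7.815 in DMSO and 7.988, 7.995 and 7.976 in CA, all CA arrays above. Its change was 0.19 (0.10 to 0.28, limma adjusted p = 0.247), and it passed with a variance that follows signal (0.0402) and with the filter at the 75th percentile (0.0397). GTF2A2, the brightest at 10.48, had 0.00. Of 11 measured partners of Mediator, such as cohesin and histone acetyltransferases, 0 were called and 1 (9.09%) had an unadjusted p under 0.05, again near that share. CREBBP, an acetyltransferase, had -0.18 (-0.34 to -0.01, limma adjusted p = 0.503) with overlapping groups, and the cohesin subunit STAG2, the brightest at 10.46, had -0.03.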

How the data were processed

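Total RNA (100 ng) was labelled with a 3' IVT kit and hybridised to 6 arrays, 3 DMSO and 3 CA, per the labels' protocols. RNA came from 1 of 2 extraction kits, and the labels do not say which for which sample. The authors deposited log2 expression values made with RMA in the affy package, per the submitters' processing notes; versions are not given in the sources used here. With 3 arrays a group, precision is limited, and standard errors of log2 changes had a median of 0.07. Left out were 62 control probe sets. Gene names came from the platform table, for probe sets with 1 symbol. CA and DMSO were compared with limma 3.58.1 in R 4.3.3 (lmFit and eBayes, 2-sided, no block), with Benjamini-Hochberg adjustment over all 27307 tested probe sets and a threshold of 0.05. Confidence intervals are from that fit, and SD is over 3 arrays. The test was run on simulated data with independent noise per probe set and 200 changed probe sets. That run held no difference shared by a whole array, so it does not cover the control differences between groups. All 33 members were to be named and, from each machinery list, called genes or the gene with the smallest p and the brightest. Members, lists, markers and modules were chosen with earlier results of these data known. The filter, variance model, scaling, array weights, block, shared probe sets and each array were varied.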

Additional observations from a re-analysis of the deposited data

How the results depend on the processing

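Of 17 alternatives, 16 gave 0 Mediator probe sets at a limma adjusted p under 0.05, and scaling to the 3' control RNAs gave 15. Over all probe sets, 26 passed, against 5 with no filter on dim probe sets, 162 with a filter at the 75th percentile, 285 with a variance trend and 1 without shared probe sets. Fitting the replicate block in limma left 0 calls, while 2485 had an unadjusted p under 0.05. The control ratio in the model, an alternative added with the data in view, also left 0, while 1643 had an unadjusted p under 0.05. Leaving out any of the 6 arrays left 2 to 6. Mediator probe sets at an unadjusted p under 0.05 were 11 of 72 (15.3%, and 9.31% of all probe sets). They were 7 of 91 with no filter (7.69%, all 6.85%), 4 of 37 without shared probe sets (10.8%, all 8.59%), 7 of 72 with the replicate block (9.72%, all 9.10%), 4 of 72 with the control ratio (5.56%, all 6.02%) and 5 to 11 with an array left out. Mediator genes at that level were 2 of 29, against 0 of 31 with no filter and 4 of 28 with the 75th percentile filter. A repeated quantile normalization gave 1 of 29. Of all tested probe sets 9.31%, 6.85%, 14% and 9.75% were at that level in these 4 settings. The share over all measured genes was 8.61% in the main fit and was not computed for these alternatives. Mediator genes were 1 of 29 with the replicate block (all probe sets 9.10%) and 0 of 29 with the control ratio (6.02%). With an array left out they were 0 to 2 (all probe sets 7.67% to 11.3%). Without shared probe sets 23 genes were left, 0 of them at that level. MED11 and MED20, the 2 of the main fit, had only shared probe sets, so this setting could not have counted them. Machinery genes at an unadjusted p under 0.05 were 4 of 54, against 1 of 54 with no filter (all probe sets 6.85%). They were 7 of 54 with the variance trend (10.6%), 1 of 54 with the control ratio (6.02%) and 1 to 4 with an array left out. Deviations of DMSO and CA arrays with the same replicate number correlated at -0.07, 0.0102 and 0.0611, and not every array correlated best with its own number. The labels do not say whether wells of the same number were made together, and these correlations cannot decide it.

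Scaling to the 3' control RNAs gave 3691 calls over all probe sets. At an unadjusted p under 0.05 were 37 of 72 Mediator probe sets, 12 of 29 Mediator genes and 28 of 54 machinery genes. Those 37 are 51.4% of the Mediator probe sets, against 50.8% of all tested probe sets. The share over all measured genes was not computed on this scale. The median Mediator change was then 0.187, and that of all probe sets 0.189. With the 5' control RNAs the counts were 5 of 72, 0 of 29 and 2 of 54, where 5.50% of all tested probe sets were at that level. The medians were 0.0341 and 0.0355. Each of these scalings subtracts 1 value per array from all its probe sets.

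Of all the alternative values, 83 had the other sign, and 0 of those passed the adjusted threshold. With the 3' scaling they were CDK8 0.13, CDK19 0.108, MED12 0.151, MED13 0.167, MED8 0.105, MED11 0.0623, MED22 0.0809, MED1 0.161, MED4 0.164, MED7 0.16, MED9 0.136, MED10 0.16, MED19 0.14, MED26 0.13, MED31 0.157, MED14 0.19, MED15 0.086, MED16 0.179, MED27 0.153, MED29 0.0759, MED30 0.113, POLR2I 0.117, POLR2B 0.161, CREBBP 0.019 and STAG2 0.17. MED20 (0.321) and MED23 (0.272) kept their sign and passed. With the 5' scaling they were MED13 0.0135, MED1 0.00809, MED4 0.011, MED7 0.00701, MED10 0.00649, MED31 0.00393, MED14 0.0366, MED16 0.0261, MED27 3.6e-05, POLR2B 0.00813 and STAG2 0.0166. With the control ratio they were MED11 0.0532, MED17 -0.207, MED7 0.098, MED9 0.0379, MED10 0.0063, MED14 0.00439, MED28 -0.0147 and STAG2 0.044. With the mean of probe sets they were CDK8 0.0147, MED12 0.0707, MED7 0.0641, MED31 0.0279 and MED16 0.0177. With median centring they were CCNC -0.0147, MED17 -0.00405, MED21 -0.000314 and GTF2A2 -0.0143. The repeated quantile normalization gave MED14 0.00962, and leaving out shared probe sets gave MED18 -0.00335, MED31 0.178 and POLR2B 0.0123. Leaving out an array in turn gave both signs for 10 of 29 Mediator genes and for 2 machinery genes: CCNC -0.0162 to 0.0102, MED12 -0.108 to 0.0393, MED13L -0.0456 to 0.0811, MED14 -0.0396 to 0.0176, MED16 -0.0583 to 0.0192, MED17 -0.0266 to 0.0484, MED21 -0.00294 to 0.0387, MED31 -0.0742 to 0.0207, MED4 -0.0825 to 0.0173, MED7 -0.0725 to 0.0226, GTF2A2 -0.0121 to 0.0242 and POLR2B -0.0635 to 0.00398. The Mediator median ran from -0.0211 to 0.00167. With MED27 to MED30 in the head, the head median was -0.0625 and the tail median -0.0165. For the 9 Mediator probe sets at an unadjusted p under 0.05 that were not the brightest of their gene, 0 of 146 alternative values changed sign. They were picked by that p in the same arrays, so a kept sign is no separate test. The sizes did move, by over 1.5 times for 6 of the 9 with the control ratio. Where no construction explains a change, the cause was not tested. The 3 arrays per group limit the precision.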
